A study of Mus musculus with 6 samples.

Results

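In mouse hearts, 300 circular RNAs (circRNAs) were detected in RNA pulled down by an antibody to N6-methyladenosine (m6A) and mostly missed the detection call in the supernatant left behind by the antibody. A circRNA counted as detected in a fraction when the scanner software called its spot well above the local background in that fraction's dye. The 300 were chosen on 5 of the 6 arrays, control 2, control 3 and CIH 1 to 3, and control 1 was kept out of the choice. Each had to be detected in the immunoprecipitate (IP) on at least 4 of the 5 arrays and in the supernatant on at most 1. Of 14236 circRNA probes, 327 met this rule (2.30%), and the 300 brightest by mean IP signal were kept. Detection on those 5 arrays, and every IP or supernatant level read from them, is therefore a description of how the set was chosen.

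The arrays hold 3 control samples and 3 samples from mice kept under chronic intermittent hypoxia (CIH), a model of obstructive sleep apnea, all of BALB/c hearts. CIH mice were cycled between 6% O2 for 60 s and 21% O2 for 60 s, a 2 min cycle run 30 times an hour, 8 h a day, over 8 weeks. The labels used here give no exposure for the controls and no age or sex, and do not say that the samples of a group came from separate animals. In both groups the IP and the supernatant were treated with RNase R, given the same amount of spike-in RNA, and labelled with Cy5 for the IP and Cy3 for the supernatant.

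m6A is a methyl mark that the Mettl3 and Mettl14 methyltransferase complex places on adenosines of RNA, that Fto and Alkbh5 can remove, and that YTH-domain proteins bind. CircRNAs arise by back-splicing, which joins the end of an exon to the start of the same or an upstream exon. Having no free ends, they resist RNase R, an exonuclease that digests linear RNA. An m6A antibody leaves unmarked molecules in the supernatant. If it captured every marked molecule, a circRNA whose molecules all carried the mark would be read in the IP channel alone. A missing detection call is a weaker statement, because it says only that a spot did not clear the background of its channel.

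The probes carry vendor IDs, and 0 of the 14236 circRNA IDs matched the gene tables used here, so members are given by ID, and their host genes and sequences are not analysed here. Of 11 cardiomyocyte markers only Hspb7, a small heat shock protein of striated muscle, was on the array, and it was detected in both channels of all 6 arrays. The array carried 0 of 5 erythroid, 0 of 6 leukocyte, 0 of 4 endothelial and 0 of 5 fibroblast markers and 0 of 18 genes of the m6A machinery, so the tissue could be checked on a single gene.

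Control 1 stood apart. Over the 3781 circRNAs detected in both fractions on at least 4 of the other 5 arrays, the SD of its log2 IP over supernatant ratio was 0.49, against 0.74 to 1.1 elsewhere. Across these circRNAs its supernatant signal had a correlation of 0.961 to the mean IP of the remaining arrays and of 0.902 to their mean supernatant. On each of the 5 other arrays the order was the opposite, with 0.888 to 0.917 against IP and 0.963 to 0.990 against supernatant. Hspb7, which is not a circRNA, had a log2 ratio of -0.46 on control 1, -3.57 and -3.67 on the other controls and -2.90, -3.18 and -3.30 on CIH 1 to 3. Control 1 is thus the single array that did not take part in the choice and also an array whose supernatant resembled an IP, and these properties cannot be told apart in what follows.

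The label of the set, circRNAs found solely in the m6A IP, was first set against control 1. There 292 of the 300 were detected in the IP and 217 in the supernatant, which is 72.3% (exact 95% binomial interval 66.9% to 77.3%, counting error over circRNAs of 1 array). The IP alone was detected for 76 of the 300 (25.3%), both fractions for 216, neither for 7 and the supernatant alone for 1. Over all circRNA probes, 9.8% were detected in the IP alone on control 1 and 37.5% in the supernatant. The 300 were thus read in the IP alone more often than circRNA probes at large on that array. The rule asks for IP detection, which favours this difference. Of the 6579 circRNAs detected in the IP there, 78.8% were also detected in the supernatant, as were 216 of the 292 members. Most members thus had a supernatant signal as well. On the held-out array most members did not match the label. Its supernatant resembled an IP, so this array cannot decide whether the label holds, and the set is called here by its rule.

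On the 5 arrays that chose them the supernatant calls were few, as the rule demands. The supernatant was detected for 103 members on control 2, 5 on control 3, 2 on CIH 1, 21 on CIH 2 and 35 on CIH 3. Detection in the IP was missing for 1, 34, 141, 25 and 2 members in the same order. CIH 1 thus missed nearly as many members in the IP as it detected there, and control 2 holds the greater part of the permitted supernatant calls. The rule was met in full, with the IP on 5 arrays and the supernatant on 0, by 42 members. A further 55 had the IP on 5 arrays with 1 supernatant call, 92 had the IP on 4 with none, and 111 had the IP on 4 with 1 supernatant call. Of the 42, 32 were detected in the supernatant on control 1.

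**Figure D1:**
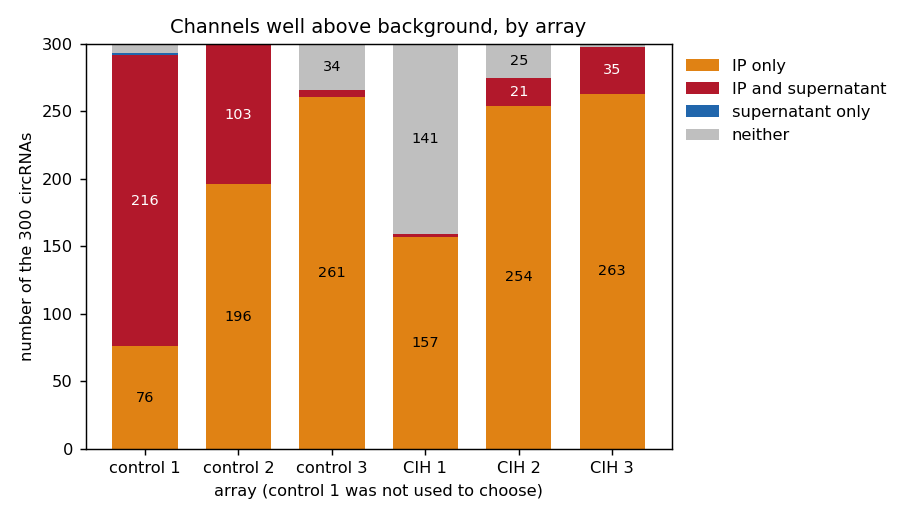
Number of the 300 circRNAs (vertical axis) whose spot was well above background in the IP only, in both fractions, in the supernatant only or in neither, on each of the 6 arrays. Both fractions were detected for 216 on control 1, which was not used to choose, and for 2 to 103 on the other arrays, while 141 had neither call on CIH 1.

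A weaker call of the same software marks a spot as positive and significant, meaning above its background without the further margin. By that call the supernatant of the members was above background for 296 of 300 on control 2, 216 on control 3, 243 on CIH 1, 298 on CIH 2 and 296 on CIH 3. These are 72.0% to 99.3% of the members, against 54.3% to 71.9% of all circRNA probes on the same arrays. On most arrays nearly every member therefore had some measured supernatant signal, which for most members lay below the margin for a detection call. On control 2 it lay above that margin for 103 of the 300.

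That margin was not the same in the 2 dyes. The lowest processed signal called detected was 82.3 to 189 intensity units in the IP and 117 to 221 in the supernatant over the 5 arrays, and the supernatant margin was 1.17 to 1.64 times that of the IP. On control 1 it was 1.62 times. Before the dye normalization of the scanner software the same quotient was 0.866 to 1.37. When the supernatant was held to each array's IP margin instead, 70 circRNAs met the rule, and 59 of them were among the 300 (19.7%). Of those 70, 34 were detected in the supernatant on control 1 by the standard call, and 10 (14.3%) were in the IP alone there with the margin matched. Under a matched margin most of the set thus no longer qualified on the arrays that chose it. This match could only remove circRNAs, since it lowered the supernatant margin and left the IP calls as they were. The IP signal of 295 and 151 members reached the supernatant margin on control 2 and 3. On CIH 1 to 3 that of 104, 279 and 286 members did.

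**Figure D2:**
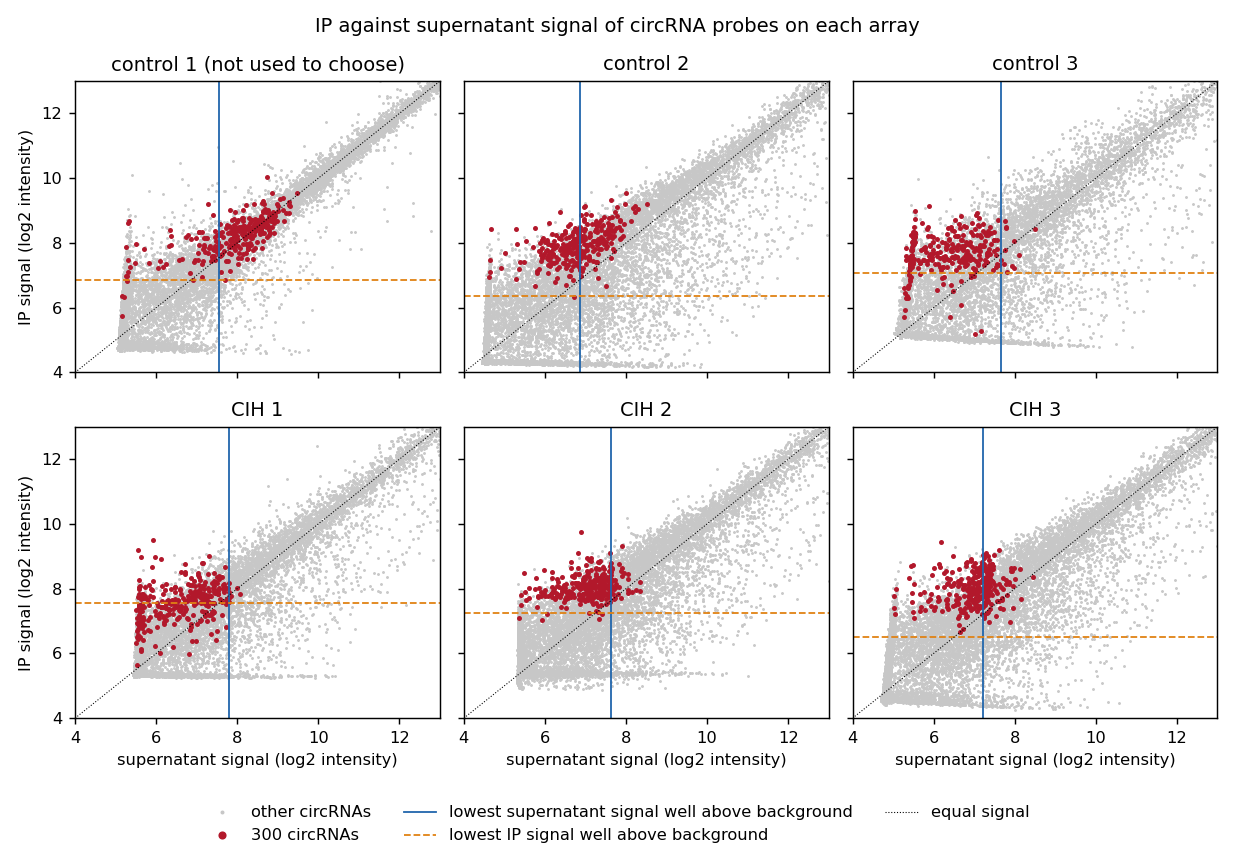
IP signal against supernatant signal of every circRNA probe on each array, both as log2 of the processed intensity, with the 300 circRNAs in red, the lowest signals called well above background as lines and equal signal as a dotted diagonal. The red points lie in the dim corner, above the diagonal on 5 arrays and close to it on control 1, where the members' median signals were 312 in the IP and 277 in the supernatant.

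The members were dim. Scaled to each array's 75th percentile over circRNA probes, their mean log2 IP signal over the 5 arrays ran from -1.10 to 0.36 with a median of -0.64. The 4756 circRNAs detected in the IP on at least 4 of these arrays had a median of 0.97 and reached 10.64. The members' median lay at percentile 9.30 of that distribution, and the brightest member at percentile 36.2. No member was thus among the bright circRNAs of the IP, although the set kept the brightest of those that qualified.

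In raw terms the members' median intensity was 197 to 262 in the IP and 82.7 to 141 in the supernatant on the 5 arrays. Over all circRNA probes the medians were 69.0 to 112 and 53.7 to 119. On each of the 6 arrays the members' median was thus above that of all circRNA probes in the supernatant too. Relative to the 75th percentile their supernatant median was -1.87 on control 2, -1.72 on control 3 and -1.66, -1.55 and -1.67 on CIH 1 to 3, against -2.34 to -1.79 for all probes. On control 1 it was -0.86. The members' IP on control 1, at -0.67, was within its range of -0.71 to -0.42 on the other arrays, and the supernatant there was above all of them.

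The same contrast holds circRNA by circRNA. Control 1 gave the highest scaled supernatant signal of the 6 arrays for 176 members (58.7%, against 25.4% of all circRNA probes) and the highest IP signal for 16. The log2 ratio was lowest on control 1 for 171 members (57.0%). That share was 28.8% among 1360 other circRNAs detected in the IP in the same range of brightness. A choice of low supernatant calls on the other arrays favours such an order, so these shares are given without a test.

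The log2 ratio of IP over supernatant, centred on each array's median over circRNA probes, had a median over the members of 1.21 on control 2, 1.40 on control 3, 1.08 on CIH 1, 0.95 on CIH 2 and 1.02 on CIH 3. On control 1 the median was 0.29, with quartiles of 0.03 and 0.63. A log2 ratio above 0 was found for 285 to 296 members on the arrays that chose them and for 235 on control 1. Above 1, a 2-fold excess in the IP, lay 132 to 198 members on the 5 arrays and 41 on control 1, where 9.36% of all circRNA probes did. The scanner software's own p for each spot's log ratio comes from its error model and not from replicates. By that p 38 to 197 members lay under 0.01 on the 5 arrays. On control 1 there were 31 (10.3%, against 4.71% of all circRNA probes there). The held-out ratio was therefore above the median of all circRNA probes for most members and much smaller than on the arrays that chose them. Only 6579 of the 14236 probes were detected in the IP on control 1, while the rule asks for IP detection. The control 1 median was 0.10 over the 3781 circRNAs detected in both fractions on at least 4 of the other arrays. It was 0.16 over the 1660 circRNAs detected in the IP in the members' range of brightness, members included.

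Single members spread widely. Their mean log2 ratio over the 5 arrays ran from 0.07 to 2.96 with a median of 1.13, and 196 lay above 1. The ratio was above 0 on all 5 arrays for 246 members and above 1 on all 5 for 33, of 92 circRNAs on the whole array that were so. On all 6 arrays, 11 members stayed above 1, of 25 circRNAs. The spread within a group was wide, with a median SD of 0.68 for the log2 ratio over the members (n = 3) against 0.43 over the circRNAs tested in the IP. Between pairs of the 5 arrays the members' ratios correlated across circRNAs at -0.04 to 0.38, while the 4756 circRNAs detected in the IP correlated at 0.74 to 0.89. The order of the members by ratio thus repeated poorly from array to array, in a set whose range of ratios the rule narrows.

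Where the supernatant was under its detection margin, a member's computed ratio rests on a dim spot. Setting the IP signal against the margin gives a lower bound instead. For the 134 members with 0 supernatant calls on the 5 arrays, log2 IP signal was set against each array's supernatant margin. The spot's own supernatant signal was used where it was higher. The 5 arrays were then averaged, so for the 92 of these with the IP on 4 arrays an IP value below the detection call was taken in. For those 92 the mean is not a bound on each array. The bound exceeded 1 for 123 of the 134, with a median of 1.23-fold more IP than supernatant signal, and was at or below 1 for the other 11. All 16 spike-in probes in the members' range of brightness, added equally to both fractions, had a mean log2 ratio above 0, with a median of 0.81. Such bounds on signal therefore do not by themselves show more RNA in the IP. It reached at least 2-fold for 3 members. These bounds rest on the calls that chose the set, and are given as a description.

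The highest bound, at least 2.49-fold, belonged to ASCRP4002064. Its log2 IP signal was 0.26, 0.25 and 0.10 on control 1 to 3 and 0.78, 0.34 and 0.02 on CIH 1 to 3. Its supernatant was not well above background on any of the 6 arrays, at -1.70, -1.79 and -2.60 in control and -1.06, -1.55 and -1.60 in CIH. Log2 ratios of 2.04, 2.01 and 2.73 on the controls went with 1.89, 1.79 and 1.59 on CIH 1 to 3. With the supernatant below the detection call throughout, these ratios were formed against dim spots. They are not bounds, and the bound of 2.49-fold takes the detection margin in place of those spots. The IP values of the groups overlapped, while each computed ratio in CIH was below each one in control.

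The next bound was that of ASCRP4012660, 2.17-fold as a mean over the 5 arrays. That mean takes in control 3, where its IP signal was 81.8 intensity units, below the supernatant margin of 204. The mean is therefore no lower bound on that array. The supernatant of ASCRP4012660 was also not well above background on any array. Its log2 ratios were 2.28, 3.81 and 1.06 on control 1 to 3, then 3.77, 2.84 and 3.30 on CIH 1 to 3. These too were formed against dim supernatant spots, and control 3, where the IP was itself below the detection call, gave the lowest value. The ratios of the groups overlapped.

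The brightest member in the IP, ASCRP4011299, behaved otherwise. Its log2 IP signal was 0.43, 0.51 and 0.49 in control and 0.22, 0.20 and 0.39 in CIH. Its log2 supernatant signal was 0.16, -0.91 and -0.88 in control and -1.32, -1.38 and -1.49 in CIH, and it was detected there on control 1 and control 2. The ratio was 0.35, 1.39 and 1.41 in control and 1.60, 1.48 and 1.85 in CIH. Control 1 was the low array in the ratio through its supernatant, since its IP signal was level with that of the other controls.

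ASCRP4011339, next in brightness, had log2 ratios of 0.02, 1.81 and 1.86 in control and 1.81, 1.48 and 0.65 in CIH. Its supernatant signal on control 1 was 0.29, and on the other arrays it lay between -1.71 and -0.85, with a detection call on CIH 3. Its IP signal, between -0.17 and 0.77, showed no such gap between control 1 and the rest.

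The members at the ends of the control 1 ratio departed from its median in both directions. ASCRP4012494 had the highest computed value, 3.47, with 1.49 and 2.11 on control 2 and 3 and 3.81, 2.15 and 1.36 on CIH 1 to 3. ASCRP4008089 had 3.41 on control 1, then 2.76 and 1.27, and 3.18, 1.37 and 1.54 in CIH. Both had a supernatant below the detection call on control 1 and on CIH 1, so that the values there, and their rank, rest on dim spots in the denominator.

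The lowest ratio on control 1, -0.77, belonged to ASCRP4004056, with 0.61 and 1.78 on the other controls and 0.85, 1.0 and 0.56 in CIH. ASCRP4010877 had -0.75 on control 1, then 1.65 and 1.12, and 0.89, 1.05 and 0.07 in CIH. On control 1 both had more supernatant than IP signal, against the label of the set, and on every other array the ratio was above 0. ASCRP4010877 was below the detection call in the IP on control 1 and in both fractions on CIH 3. ASCRP4004056 was below it in both fractions on control 3, where its ratio was highest. These values rest on dim spots too.

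**Figure D3:**
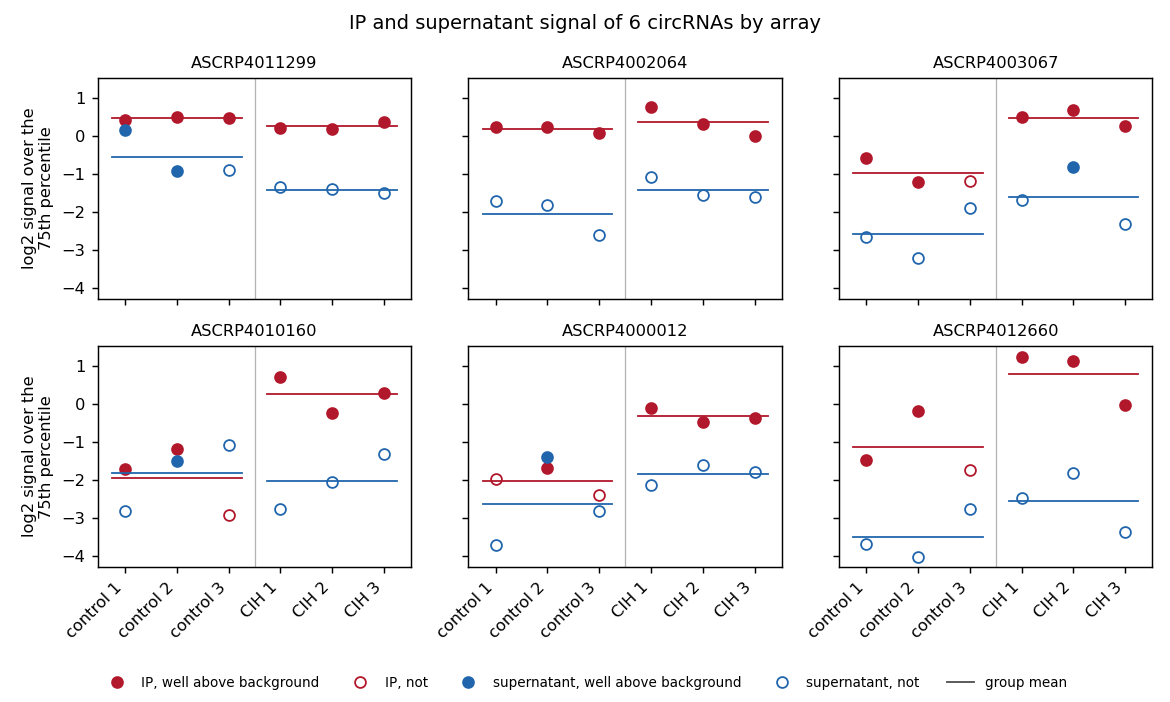
Log2 signal over the array's 75th percentile (vertical axis) in the IP and the supernatant on each array for 6 of the 300 circRNAs, with filled points for spots well above background, open points for the others and lines at group means. ASCRP4002064 keeps its IP above its supernatant throughout, ASCRP4011299 loses the gap on control 1, and the other 4 have higher IP signals on the CIH arrays than on the control arrays.

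The limit set by the cap fell in the middle of similar circRNAs. Just inside it, ASCRP4005837 and ASCRP4001418 had a mean log2 IP signal of -1.10 each, and just outside, ASCRP4007761 and ASCRP4010637 had -1.11 each. The pair inside had mean log2 ratios of 0.10 and 1.33 in control and of 0.78 and 0.59 in CIH. The pair outside had 0.74 and 0.71 in control and 0.64 and 0.31 in CIH. A limit by rank makes such neighbours alike in brightness.

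The members were then set beside other circRNAs in the same range of mean IP signal, which held 1660 circRNAs including the 300 (18.1%). Among the 1360 others, 768 (56.5%) were detected in the supernatant on at least 4 of the 5 arrays and 592 on 2 or 3. Their mean log2 ratio had a median of 0.30 on the 5 arrays and 0.14 on control 1, where 87.4% were detected in the supernatant. On control 1 the members, at 0.29 and 72.3%, lay somewhat further to the IP side than the other circRNAs of that range. The range reached percentile 36.2 of the circRNAs detected in the IP, and the members' median lay at percentile 9.30. Brightness was thus not matched within the range, and its part in the difference was not tested. With 1 held-out array this difference has no replicate check.

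The spike-in probes give the same reading for RNA that carried no difference by design, since it was added to both fractions in equal amount. Of 102 spike-in probes, 62 were detected in the IP on at least 4 of the 5 arrays, and 9 met the rule that chose the members. That is 14.5% of the 62, against 6.88% of the 4756 circRNAs with the same IP detection. In the members' range of brightness 9 of 16 spike-in probes met the rule (56.3%), against the 18.1% of circRNAs there that are members. Each spike-in probe had 3 spots, and neither the number of spots nor brightness within the range was matched in this comparison. The mirrored rule, for the supernatant without the IP, was met by 0 of the 102. These calls thus read some RNA that was added equally to both fractions as present in the IP alone.

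The 9 spike-in probes were as dim as the members, with a mean log2 IP signal of -0.65 to -0.21. Their mean log2 ratio over the 5 arrays was 0.76 to 2.05 with a median of 0.84, and on control 1 the median was 0.07 and all 9 were detected in the supernatant. All 16 spike-in probes in the members' range had a mean log2 ratio above 0, with a median of 0.81. The 1660 circRNAs of that range had a median of 0.46, and the members, whose supernatant calls were selected to be low, 1.13. Spike-in probes detected throughout had a median log2 ratio of 0.09 to 0.31 on the 6 arrays.

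**Figure D4:**
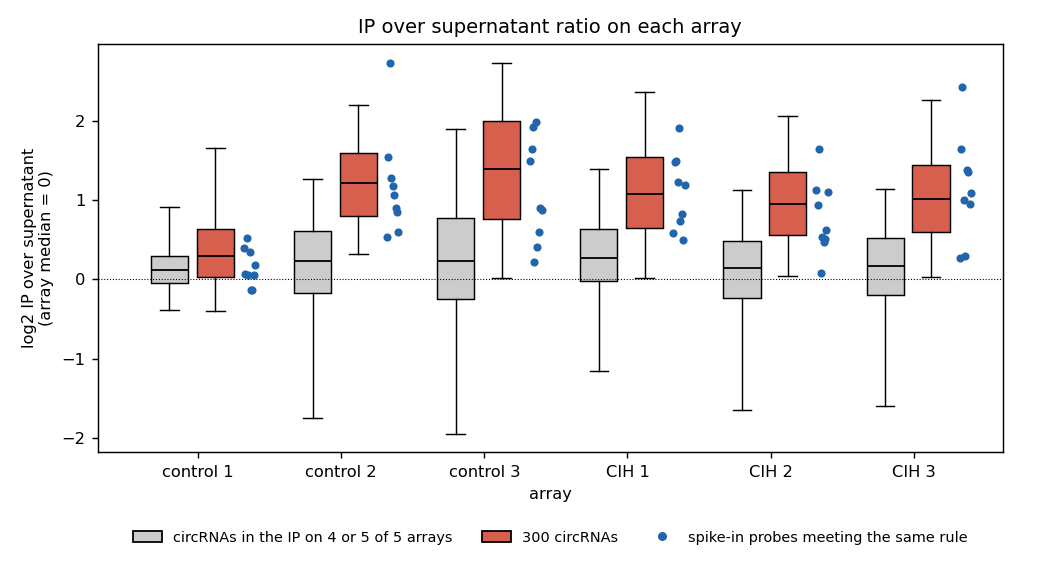
Log2 ratio of IP over supernatant (vertical axis, array median at 0) on each array for the circRNAs detected in the IP on 4 or 5 of the 5 arrays, the 300 circRNAs, and the 9 spike-in probes that met the same rule. Boxes give quartiles with the median and whiskers the 5th and 95th percentiles; the members' median is 0.95 to 1.40 on the 5 arrays and 0.29 on control 1, and the spike-in probes fall on control 1 as well.

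Other control probes bear on the same point. None of 15 negative probes met the rule. Of 50 mRNA probes 1 did, that of Spats1, a gene named for its expression in spermatogenesis, with log2 ratios of 0.94 and 1.11 on control 2 and 3 and 0.95, 0.88 and 1.1 on CIH 1 to 3. On control 1 its ratio was 0.05 with both channels detected. This probe thus followed the same course over the arrays as the members' median.

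Features of the spots themselves did not set the members apart. Their median local background was 13 to 15 in the IP and 11 to 13 in the supernatant on the 5 arrays, equal to that of all circRNA probes. No member spot was saturated or marked as an outlier. Of the members, 47.7% lay in the upper rows of the array and 46.3% in its left columns, against 50.04% and 49.7% of all circRNA probes. The counterpart of the set, 243 circRNAs detected in the supernatant and not in the IP by the mirrored rule, had a median log2 ratio of -3.24 to -2.33 on the 5 arrays and -0.71 on control 1, so both sets lay nearer to 0 there.

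CIH was then compared with control in each measure, a contrast that the rule did not use. The rule does bear on it, because a member may be dim in the IP on 1 of the 2 control arrays or on 1 of the 3 CIH arrays that chose it. In bulk tissue, fewer cells of a type and less RNA per cell cannot be told apart.

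In the IP signal, 4 of the 300 circRNAs were higher in CIH and 0 lower with limma at a Benjamini-Hochberg adjusted p under 0.05, a share of 1.33%. Of all 6274 circRNAs tested, 1.4% were higher and 0.0% lower, so the members' share was near the background. CIH 2 and CIH 3 were on a slide of their own, and with slide as a block 0 members and 6 of all circRNAs tested were called, in place of 4 and 88. At an unadjusted p under 0.05, 18 members were higher (6.00%, background 7.27%) and 10 lower (3.33%, background 2.82%). The groups did not overlap for 20 members higher in CIH (6.67%, background 8.02%) and 20 lower (6.67%, background 8.8%).

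The median log2 change of the members in the IP was -0.11, with quartiles of -0.33 and 0.12, against -0.13 over all circRNAs tested. The mean was higher in CIH for 109 members (36.3%, against 31.0% of all). The changes ran from -0.95 to 2.20 with a median SE of 0.30, wider than the 0.24 over all circRNAs tested. Averaged over a group, the members' median log2 IP signal was -0.58 ± 0.14 on the control arrays and -0.64 ± 0.06 on the CIH arrays (SD, n = 3). The difference between the groups was smaller than the SD of the control arrays.

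**Figure D5:**
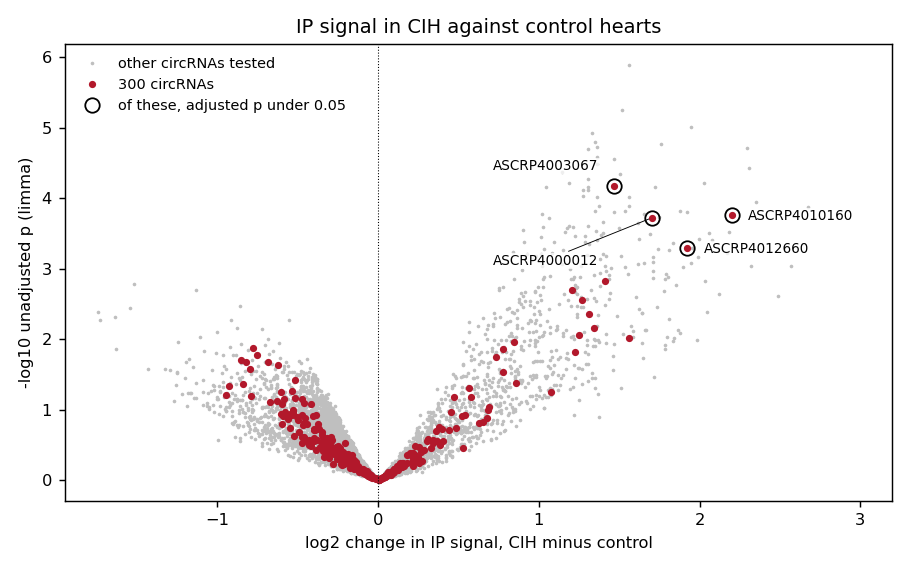
Log2 change of the IP signal in CIH against control (horizontal axis) and -log10 of the unadjusted limma p (vertical axis) for 6274 circRNAs, with the 300 in red and those past an adjusted p of 0.05 ringed. The 4 ringed circRNAs lie between 1.47 and 2.20 on the right, and the rest of the 300 are spread on both sides of 0.

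The largest rise was that of ASCRP4010160. Its log2 IP signal was -1.71, -1.17 and -2.90 on control 1 to 3 and 0.73, -0.21 and 0.30 on CIH 1 to 3. All CIH arrays lay above all controls, and on control 3, the lowest, it was not well above background. The change was 2.20 with an SE of 0.42, a 4.59-fold rise (limma adjusted p = 0.0279). With single arrays left out the change ran from 1.71, without control 3, to 2.58, without control 2. Its supernatant signal, detected on control 2 alone, was -1.79 ± 0.91 on the control arrays and -2.03 ± 0.72 on the CIH arrays (SD, n = 3) and overlapped between the groups.

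ASCRP4012660, one of the pair with the highest bounds above, had a log2 IP signal of -1.47, -0.17 and -1.74 in control and 1.26, 1.14 and -0.01 in CIH. CIH 3 lay above the highest control, control 2, by less than the spread within either group, and control 3 was again below the detection call. The change was 1.92 with an SE of 0.41, a 3.79-fold rise (limma adjusted p = 0.0442).

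The other circRNAs past the threshold are named because the count is small, and were chosen after their values were seen. ASCRP4000012 had -1.96, -1.67 and -2.38 in control and -0.09, -0.46 and -0.35 in CIH, a change of 1.71 with an SE of 0.33 (limma adjusted p = 0.0287). Of the controls, only control 2 was well above background, so that its control level is largely that of dim spots, and it met the rule and the filter of the test through control 2 and its 3 CIH arrays. ASCRP4003067 had -0.56, -1.20 and -1.17 in control and 0.50, 0.69 and 0.27 in CIH, a change of 1.47 with an SE of 0.25 (2.77-fold, limma adjusted p = 0.0201), with control 3 below the detection call. In both, every CIH array lay above every control array.

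For these 4 circRNAs the supernatant was below the detection call on at least 5 of the 6 arrays, and none was testable there. Their total signal, the sum of both channels, was 1.28 to 1.73 higher on the log2 scale in CIH, and none of these differences passed the threshold (limma adjusted p of 0.228 to 0.256). Their log2 ratio was higher in CIH by 2.38 for ASCRP4010160, 0.92 for ASCRP4012660, 0.85 for ASCRP4000012 and 0.43 for ASCRP4003067 (limma adjusted p = 0.999 each). A change in m6A and a change in the amount of a circRNA could not be told apart for them by these measures.

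The rises depended on the arrays and on how the signals were prepared. Without CIH 1 or without CIH 2, 0 members passed, without control 1 ASCRP4003067 alone passed, and without control 2 there were 6. On slide 1, which held the 3 controls and CIH 1, the 4 changes were 2.66, 2.39, 1.91 and 1.48 in the order given above, and the fit with slide as a block gives the same estimates (limma adjusted p of 0.0671 to 0.0892). With normexp on the median signals, which also leaves out the dye normalization and adds an offset of 50 that shrinks the changes of dim spots, the 4 changes were 0.33, 0.33, 0.21 and 0.26, and none passed.

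No circRNA of the set passed in the lower direction. The smallest p among the falls was that of ASCRP4012392, with -0.40, -0.59 and -0.10 in control and -1.23, -0.92 and -1.29 in CIH, a difference of -0.78 with an SE of 0.27 (limma adjusted p = 0.263). ASCRP4008649 had -0.34, -0.60 and -0.30 in control and -1.45, -1.10 and -0.95 in CIH (difference -0.75, limma adjusted p = 0.303). The groups did not overlap in either circRNA, and both were below the detection call on CIH 1, the array with the fewest members detected in the IP.

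In the IP over supernatant log ratio all 300 were tested, and 0 were higher and 0 lower in CIH with limma, as among all 6915 circRNAs tested (0.0% in each direction). At an unadjusted p under 0.05, 8 members were higher (2.67%, background 1.14%) and 3 lower (1.0%, background 1.39%), and the smallest adjusted p of a member was 0.999. The groups did not overlap for 15 members higher in CIH (5.0%, background 3.27%) and 5 lower (1.67%, background 2.27%). The median change was 0.03, against -0.03 over all circRNAs tested. The control arrays had a median log2 ratio over the members of 0.97 ± 0.59 and the CIH arrays one of 1.02 ± 0.06 (SD, n = 3). Control 2 and control 3 averaged 1.31, so that the control mean and its wide SD rest on control 1. For ASCRP4012660 the trended moderation gave an SE of 24.2, while without a trend the largest SE of a member was 0.902 and 0 passed as well.

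In the supernatant signal 0 of the 300 could be tested, because the rule leaves at most control 1 and 1 further array with a detection call, and 3 were required. Their median log2 supernatant signal was -1.48 ± 0.55 on the control arrays and -1.63 ± 0.07 on the CIH arrays (SD, n = 3), and -1.79 over control 2 and control 3. In the total signal all 300 were tested and 0 passed in either direction with limma, as among all 6915 (0.0%), with 15 higher (background 7.94%) and 4 lower (background 1.75%) at an unadjusted p under 0.05. The groups did not overlap for 21 members higher in CIH (background 8.52%) and 27 lower (background 8.75%). The smallest adjusted p of a member was 0.228, and the median change was -0.19 against -0.13 over all circRNAs tested.

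Detection in the IP followed single arrays. It was made on all 3 control and all 3 CIH arrays for 95 members, on 3 control and 2 CIH arrays for 166, on 2 control and 3 CIH arrays for 33, on 1 control and 3 CIH arrays for 4, and on 2 of each for 2. Most of the misses in CIH fell on CIH 1, which missed 141 members. CIH 1 also had the fewest circRNAs detected in the IP of all arrays, 4521 against 4962 to 7224, and the highest IP margin, 189 intensity units. The part of that margin in the members' pattern was not tested.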

How the data were processed

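Each of the 6 deposited files is the scanner output of 1 two-colour array, read with Agilent Feature Extraction 11.0.1.1, per the file headers. Its processed signals are intensity values that the authors' software background-subtracted and dye-normalized (linear and lowess) in each array, as the file headers state. The same software set the deposited detection flags and the deposited p-value of each spot's log ratio, which comes from its error model. The deposited log10 ratio is Cy5 over Cy3, per the file headers, so positive values mean more IP, and log2 ratios were recomputed here from the deposited intensity values. Per the labels' protocols the RNA was made with a kit for blood and depleted of globin, which sits oddly with heart tissue. Dim spots carry surrogate values, and a supernatant value of this kind was held by 2 to 84 members per array.

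Log2 signals were set to the array's 75th percentile and log2 ratios centred on the array median. Testing required detection on 3 or more of the 6 arrays in the tested channel, or in either channel for ratio and total. Tests used limma 3.58.1 in R 4.3.3 with a trend, two-sided and Benjamini-Hochberg adjusted over all circRNAs tested. They were tested on simulated data. The p-values measure the spread between 3 samples a group, which may be technical, and the number of arrays limits their precision. With no dye swap, a ratio carries the probe's dye response.

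The members and gene lists were chosen with earlier results of these data known. Members were named for brightness, bound, change in CIH, ratio on control 1 and place at the cap, at most 2 per group and direction since they have no gene names. Alternatives covered background correction, scaling, filters, slide, weights, moderation, member rule and single arrays.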

Additional observations from a re-analysis of the deposited data

How the results depend on the processing

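The count of 4 members higher in CIH in the IP signal (limma) was 1 with normexp, 1 with quantile normalization, 0 among circRNAs detected on all 6 arrays, 10 without a filter, 11 with array weights, 0 with slide as a block and 0 without moderation. It was 0 to 6 with single arrays left out. Among the 42 circRNAs of the strictest rule and those chosen by the positive and significant call it was 0, and among the 70 with matched margins, an alternative chosen after seeing the data, it was 2. Fewer members were tested there and on all 6 arrays; the cause of the other moves was not tested. Same-numbered samples did not deviate together in the IP (correlations -0.03, 0.02 and -0.24), so the numbers are not shown to pair them; with the replicate number as a block 0 members passed.

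The median log2 change of the members was -0.38 with median scaling, where that of all circRNAs tested was -0.40, and -0.01 with spike-in scaling. In the total signal the count of 0 became 1 with median scaling and 1 without a filter, and was 0 to 1 with single arrays left out, the 1 arising without control 2. On control 1, 30.7% of members chosen by the positive and significant call were in the IP alone, and 14.3% with matched margins. With normexp the median log2 ratio there was -0.019 in place of 0.29. On the other 5 arrays it was 0.057 to 0.142 in place of 0.95 to 1.40. The offset of 50 draws the ratio of dim spots toward equal signal on any array. This fall is therefore in part set by the offset, and how much was not tested. The log ratio count was 0 under all 18 alternatives run. The supernatant was testable only without a filter, where 0 passed. Detection margins limit what the supernatant side can show, since most members were read below them.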
